A study of Mus musculus with 12 samples.

Results

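The 9 collagen genes described here comprise members of the beaded, network and FACIT classes, and Col7a1 of the anchoring fibrils. These collagens build no thick fibrils of their own and lie outside the basement membrane sheet. They were chosen by gene symbol from the 25230 genes counted: Col6a1, Col6a2 and Col6a3 of type VI, Col7a1 of type VII, Col8a1 and Col8a2 of type VIII, Col12a1 of type XII, Col14a1 of type XIV and Col16a1 of type XVI. All 9 symbols were found in every library. The libraries were made from mRNA of primary mouse mesangial cells (MMC), the contractile support cells of the glomerulus, grown from pooled glomeruli of wild-type (WT) mice or of the lncMGC-KO5 line. KO5 mice, edited with Cas9 in C57BL/6J embryos, lack a stretch next to the start site of lncMGC, the long non-coding RNA that hosts the miR-379 cluster of microRNAs. WT and KO5 MMC were either serum-depleted (SD) or given TGF-β at 10 ng/ml for 24 h, which made the groups WT-SD and WT-TGF and the groups KO-SD and KO-TGF, with 3 libraries in each of the 4. The 6 mutant libraries come from 1 mutant line, and the labels do not say whether the libraries of a group came from separate cultures or animals, so that the tests measure the spread between libraries, which may be technical, and genotype cannot be told apart from differences between the cultures.

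Collagens are made of 3 chains wound into a triple helix, and these classes sit on, between or around the fibrils rather than forming their core. Type VI collagen is assembled from an α1, an α2 and an α3 chain and makes beaded filaments close to cells. Type VIII collagen forms open networks in vessel walls and in the eye, and type VII collagen makes the anchoring fibrils that fasten epithelia to the tissue below. Types XII, XIV and XVI are FACITs, which attach to the surface of other collagen fibrils. TGF-β is a cytokine known for driving matrix gene expression in mesangial cells, and accumulation of matrix in the mesangium is a feature of diabetic kidney disease.

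Each library held 19898050 to 22827706 counts on genes, and 11478 genes with RPKM >1 (reads per kilobase of exon, scaled for library size) in at least 1 library were tested. No row of the counts is named lncMGC, so the deletion could not be checked. Mirg, a transcript of the same locus, was at 2.14 to 2.69 CPM (counts scaled to a common library size by TMM) in WT-SD, 3.45 to 3.75 in WT-TGF, 3.31 to 4.30 in KO-SD and 3.64 to 4.65 in KO-TGF. Its neighbors Rian (40.2 to 45.3 CPM in WT-SD, 69.2 to 70.9 in KO-SD) and Meg3 (149.8 to 159.3 and 180.1 to 209.5) were likewise not lower in KO, and KO below means the libraries labelled KO. The authors report the deletion by Sanger sequencing. By RT-qPCR they report no expression of lncMGC in KO5 MMC, and less Mirg, Rian and Meg3 in KO5 than in WT MMC. Of 10 markers of mesangial and smooth muscle cells, 9 were above 3 counts, led by Acta2 and Tagln, whereas Thy1 had at most 1 count in a library, Itga8 lay at means of 0.637 to 3.05 CPM, and Des had a mean of 7.68 CPM in WT-SD but 0.529 in KO-SD. The summed level of these 10 genes was 2638 to 2790.4 CPM in WT-SD, 5825 to 5980.3 in WT-TGF, 5118 to 5297 in KO-SD and 11074 to 11153 in KO-TGF. Of 12 macrophage markers, 11, 10, 4 and 3 were above 3 counts in the same order of groups, and their sum was 37.3 to 40.5, 20.2 to 24.0, 8.18 to 9.77 and 2.35 to 2.68 CPM, with Adgre1 and the C1q chains at 0 in every KO library. Podocyte markers summed to 455.2 to 473.6 CPM in WT and 204.6 to 226.9 in KO libraries, although Nphs1 had at most 1 count in a library. Tubular markers summed to 71.4 to 77.4 CPM in WT-SD, 21.8 to 25.2 in WT-TGF, 17.7 to 18.4 in KO-SD and 12.2 to 13.3 in KO-TGF, with Slc34a1, Umod and Aqp2 at 0, and endothelial markers to 33.1 to 33.6, 20.2 to 22.6, 17.2 to 18.5 and 9.23 to 10.9. The tubular sums followed Lrp2 (means of 42.7, 11.7, 10.8 and 3.28 CPM in that order) and Cdh16 (27.5, 6.13, 2.71 and 0.53). Cubn (3.01, 5.25, 3.23 and 5.63 CPM) and Slc12a1 (0.358, 0.842, 1.25 and 3.05) had higher means with TGF-β in both genotypes. Ehd3 (32.7, 20.7, 17.1 and 9.69 CPM) made up nearly all of the endothelial sums. The other endothelial markers had at most 10 counts in a library, with higher means in KO-SD than WT-SD for all but Tie1 and Vwf. In RNA from whole cultures, fewer cells of a type and less RNA per cell cannot be told apart, and the part of these cells in the results below was not tested. The 3 KO-SD libraries differed from each other more than others did, with a chi-square of 2.61 to 5.1 per degree of freedom against 1.36 to 2.11 within the other groups. With library sizes alone in place of TMM, the median log2 fold change of all genes tested moved from -0.01 to -0.16 for TGF-β in WT, from -0.02 to -0.23 for TGF-β in KO, from 0.02 to -0.05 for KO against WT in SD and from -0.00354 to -0.12 under TGF-β, and the changes below are on the TMM scale.

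Together the 9 collagens were expressed at a summed RPKM of 150.9 ± 1.74 (SD, n = 3) in WT-SD, 256 ± 1.81 in WT-TGF, 455.8 ± 9.33 in KO-SD and 391 ± 1.38 in KO-TGF. They took 0.173% to 0.176% of all counts in WT-SD, 0.255% to 0.26% in WT-TGF, 0.478% to 0.491% in KO-SD and 0.31% to 0.315% in KO-TGF. Per length, the levels in WT-SD ran from Col12a1 (67.6 RPKM) and Col8a1 (47.3) through Col16a1 (14.5), Col6a1 (14.1) and Col8a2 (5.05) to Col6a2 (0.968), Col14a1 (0.777), Col7a1 (0.596) and Col6a3 (0.0802). In that order, the libraries of Col16a1 and Col6a1 overlapped. In KO-SD, Col8a1 (183.3 RPKM) and Col12a1 (182.3) led with overlapping libraries, followed by Col6a1 (52.0), Col8a2 (15.4) and Col16a1 (15.1), of which the last pair also overlapped. With TGF-β, Col12a1 led in WT (105.8 RPKM against 77.1 for Col8a1), whereas Col8a1 led in KO (179.8 RPKM against 92.4 for Col12a1). The share of Col12a1 in the counts of the 9 genes was 64.2%, 61.3% and 59.4% in WT-SD, WT-TGF and KO-SD and 40.6% in KO-TGF, where Col8a1 had 40.7%.

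**Figure D1:**
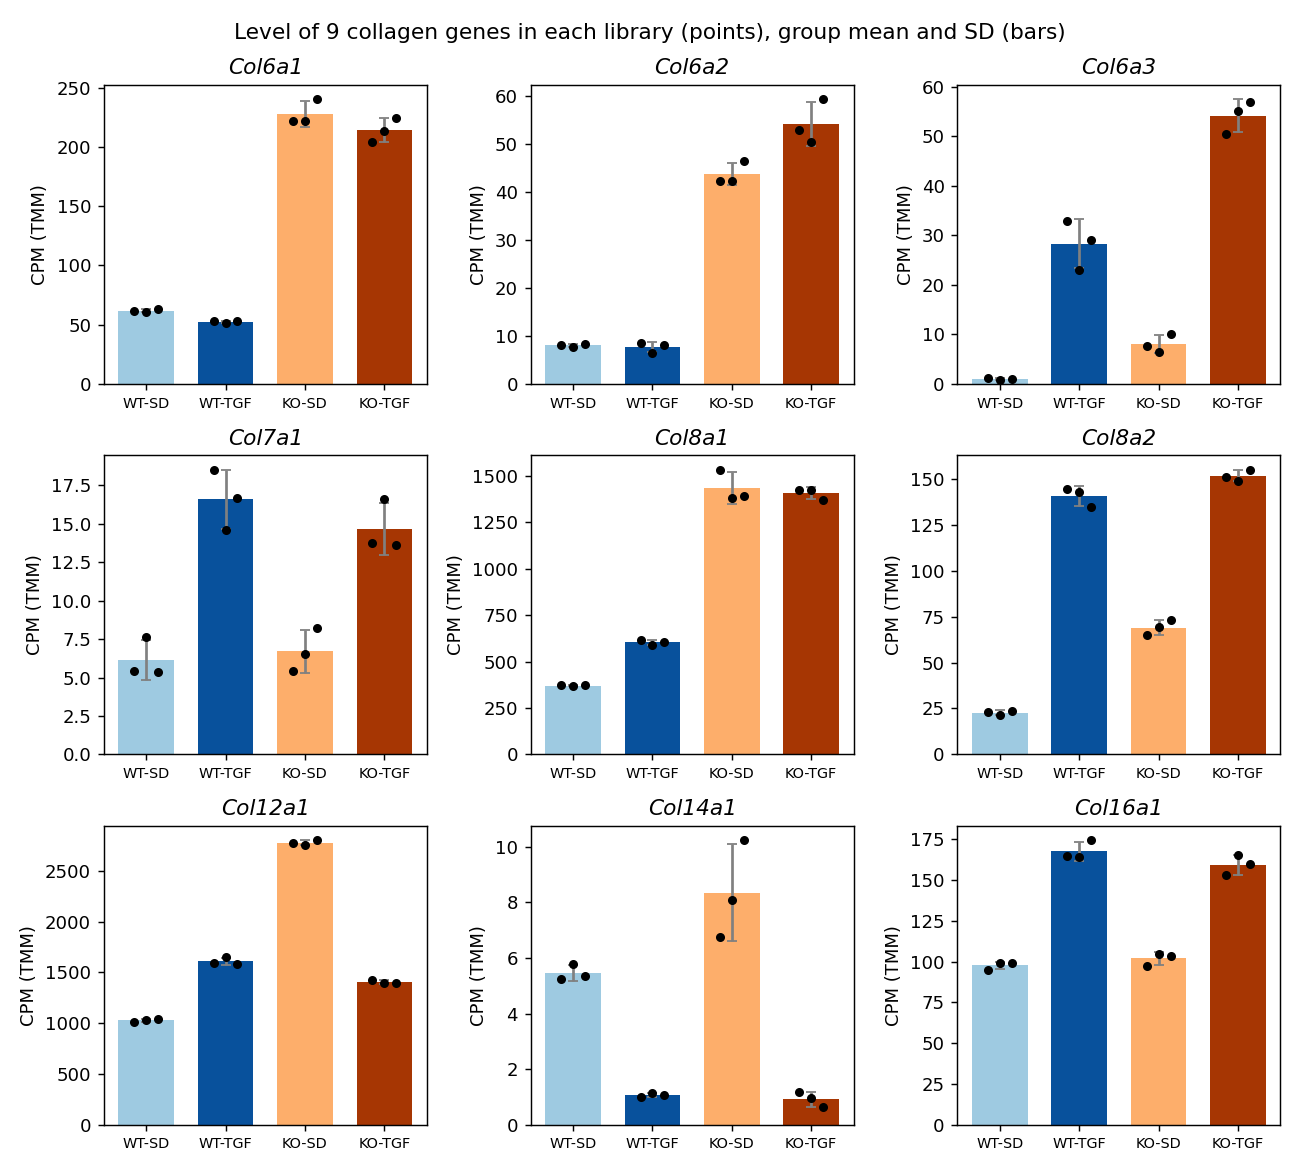
CPM (linear axis from 0, its scale set for each gene) of the 9 collagens in the 12 libraries, in 1 panel per gene, with the groups on the horizontal axis, a point for each library, bars for the group mean and whiskers for the SD. Col6a1, Col6a2 and Col8a1 sat higher in both KO groups than in both WT groups, Col16a1 and Col7a1 were set apart by TGF-β, and Col14a1 was lowest in both TGF-β groups.

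The type VI chains were higher in KO than in WT libraries in both conditions. Col6a1 (chr10:76708792-76726168, minus strand, mm10), which codes for the α1 chain, had 61.7, 60.5 and 63.3 CPM in WT-SD and 52.6, 51.3 and 53.1 CPM in WT-TGF. The KO-SD libraries had 221.4, 221.4 and 240.2 CPM and the KO-TGF libraries 204.4, 213.4 and 224.2 CPM. Every KO library was therefore over 3 times as high as any WT library, while the KO-SD and KO-TGF libraries overlapped. The log2 fold change of KO against WT was 1.88 ± 0.0368 (SE) in SD (FDR = 2.34e-27) and 2.03 ± 0.0384 under TGF-β (FDR = 1.03e-27) (edgeR quasi-likelihood test, FDR by Benjamini-Hochberg throughout). TGF-β lowered Col6a1 slightly in WT, with a log2 fold change of -0.24 ± 0.0428 (FDR = 1.03e-05). In KO the change was -0.09 ± 0.0329 (FDR = 0.0161), and it lost its call with DESeq2 (-0.07, FDR = 0.0957) and when KO-SD replicate 3 (-0.05) or either of the KO-TGF replicates 1 (-0.04) and 2 (-0.07) was left out.

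Col6a2 (chr10:76595762-76623630, minus strand), which codes for the α2 chain and lies next to Col6a1 on the chromosome, had 8.06, 7.73 and 8.39 CPM in WT-SD and 8.41, 6.46 and 8.0 CPM in WT-TGF. In the mutant it had 42.3, 42.3 and 46.4 CPM in KO-SD and 52.9, 50.4 and 59.3 CPM in KO-TGF. The WT groups overlapped, both KO groups lay far above them, and KO-TGF lay above KO-SD in all 3 libraries. KO against WT gave a fold change of 5.42 in SD (log2 2.44 ± 0.0758, FDR = 3.01e-22) and 7.13 under TGF-β (log2 2.83 ± 0.0762, FDR = 7.64e-24). TGF-β raised it in KO by 0.31 ± 0.0558 on the log2 scale (FDR = 1.04e-05), a call that was lost with library sizes alone (0.11, FDR = 0.0706). In WT the log2 fold change was -0.08, with a 95% interval of -0.30 to 0.13 (FDR = 0.484), which was 0.03 without WT-TGF replicate 2 and was called lower with library sizes alone (-0.24, FDR = 0.0415).

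Col6a3 (chr1:90765923-90843971, minus strand) codes for the long α3 chain and was the member most raised by TGF-β. Its counts were 26, 18 and 20 in WT-SD, which is 1.18, 0.782 and 0.912 CPM, and it had 33.0, 23.1 and 29.0 CPM in WT-TGF. The mutant had 7.58, 6.42 and 10.1 CPM in KO-SD and 50.5, 55.1 and 57.0 CPM in KO-TGF. No groups overlapped, and their order from low to high was WT-SD, KO-SD, WT-TGF and KO-TGF. The fold change with TGF-β was 29.4 in WT (log2 4.88 ± 0.176, FDR = 4.39e-21) and 6.72 in KO (log2 2.75 ± 0.104, FDR = 1.21e-20). KO was 8.37-fold above WT in SD (log2 3.07 ± 0.234, FDR = 1.22e-12) and 1.92-fold above it under TGF-β (log2 0.94 ± 0.0831, FDR = 3.91e-11). The response in KO minus that in WT was -2.13 ± 0.265 on the log2 scale (FDR = 2.01e-07), from different starting levels.

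Windows of 300 bases around the transcription starts, from RefSeq on GRCm38.p6 (the assembly of mm10), are shown for the type VI chains because Col6a1 and Col6a2 differed alike between WT and KO while Col6a3 responded most to TGF-β. Capitals mark CAGAC or GTCTG, the short letters that Smad proteins are known to bind, and TGAGTCA or TGACTCA, the letters bound by AP-1, each pair being the same motif read on the 2 strands. Of 2 windows listed for Col6a2, the one at the outer start is shown, and the other held neither motif.
Col6a1 chr10:76725995-76726294 (minus strand): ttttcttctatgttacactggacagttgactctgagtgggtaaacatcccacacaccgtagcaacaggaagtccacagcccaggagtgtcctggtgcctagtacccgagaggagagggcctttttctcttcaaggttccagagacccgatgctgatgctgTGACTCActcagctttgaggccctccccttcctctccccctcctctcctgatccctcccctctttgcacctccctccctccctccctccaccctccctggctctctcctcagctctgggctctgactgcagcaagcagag
Col6a2 chr10:76623581-76623880 (minus strand): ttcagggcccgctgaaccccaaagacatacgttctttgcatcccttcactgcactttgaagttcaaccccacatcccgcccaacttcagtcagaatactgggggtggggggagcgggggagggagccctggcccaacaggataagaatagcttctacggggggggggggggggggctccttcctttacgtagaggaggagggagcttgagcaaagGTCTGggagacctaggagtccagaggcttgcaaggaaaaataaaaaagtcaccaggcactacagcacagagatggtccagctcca
Col6a3 chr1:90843922-90844221 (minus strand): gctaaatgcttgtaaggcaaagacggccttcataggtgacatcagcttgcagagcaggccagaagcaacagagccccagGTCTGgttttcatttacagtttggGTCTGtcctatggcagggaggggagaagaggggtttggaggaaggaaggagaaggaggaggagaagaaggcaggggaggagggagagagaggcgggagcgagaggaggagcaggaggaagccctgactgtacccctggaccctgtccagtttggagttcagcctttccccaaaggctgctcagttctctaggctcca
Col6a3 held 2 Smad motifs, Col6a2 held 1, and Col6a1 held 1 AP-1 motif. Among 32851 promoter windows of the mouse, 49.6% held the Smad letters and 5.2% the AP-1 letters. A match is a description of letters and not a measured site.

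Because the α chains of type VI collagen are built into 1 molecule, their transcripts were set side by side per length. The Col6a3 level was 0.00568 ± 0.0012 (SD, n = 3) of the Col6a1 level in WT-SD, 0.198 ± 0.0324 in WT-TGF, 0.0128 ± 0.0024 in KO-SD and 0.0926 ± 0.00206 in KO-TGF, all as ratios of RPKM. The ratio of Col6a1 to Col6a3 was also taken in each library and then averaged. It was 181 ± 35.3 in WT-SD, 79.6 ± 14.6 in KO-SD, 10.8 ± 0.242 in KO-TGF and 5.15 ± 0.866 in WT-TGF. The Col6a2 level was 0.0686 ± 0.00122 of the Col6a1 level in WT-SD, 0.0765 ± 0.00924 in WT-TGF, 0.101 ± 0.000613 in KO-SD and 0.133 ± 0.00787 in KO-TGF. The Col6a1 transcript was thus the most abundant of the 3 chains in every library, and on the TMM scale their summed RPKM differed by less than 1 SD with and without TGF-β, at 15.2 ± 0.37 and 15.2 ± 0.717 in WT and at 57.9 ± 2.91 and 59.9 ± 2.94 in KO (SD first in each pair). Col6a4, whose chain is related to the α3 chain, had 15 to 39 counts in a library and is not in these ratios. The ratios depend on the exon lengths used, and transcripts do not give the amount of protein.

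**Figure D2:**
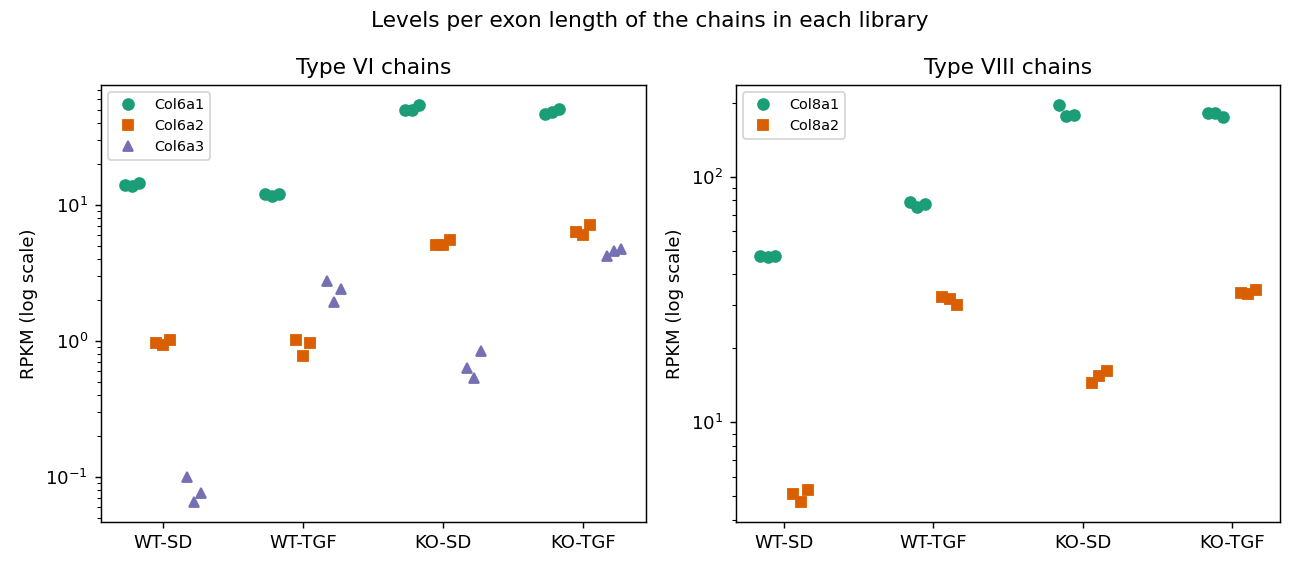
RPKM (log scale) of the type VI chains (left) and the type VIII chains (right) in the 4 groups, with 1 point per library and a symbol for each chain. By the mean of the library ratios, Col6a3 lay below Col6a1 by 181 times in WT-SD and by 5.15 times in WT-TGF. Col8a2 lay below Col8a1 by 9.38 and 2.46 times.

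Type VIII collagen is made from an α1 and an α2 chain. Col8a1 (chr16:57624258-57754737, minus strand), the α1 chain, had 372.1, 367.6 and 371.5 CPM in WT-SD and 617.5, 589.4 and 605.1 CPM in WT-TGF. In KO-SD it had 1534, 1381 and 1392 CPM and in KO-TGF 1426, 1426 and 1373 CPM. TGF-β thus set the WT groups apart but not the KO groups, which overlapped at a level above every WT library. The log2 fold change with TGF-β was 0.71 ± 0.0299 in WT (FDR = 2.79e-19), and in KO it was -0.03 with a 95% interval of -0.09 to 0.03 (FDR = 0.39). That KO value was 0.02 without KO-SD replicate 1, the highest library, and 0.01 without KO-TGF replicate 3, and with library sizes alone it was called lower, at -0.23 (FDR = 6.54e-09), beside an all-gene median of -0.23. KO was 3.88-fold above WT in SD (FDR = 5.04e-30) and 2.33-fold above it under TGF-β (FDR = 4.16e-25), and the responses differed by -0.73 ± 0.0414 on the log2 scale (FDR = 9.85e-15).

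Col8a2 (chr4:126286793-126314330, plus strand), the α2 chain, had 22.9, 21.3 and 23.8 CPM in WT-SD and 144.7, 142.6 and 134.7 CPM in WT-TGF. In KO it had 64.9, 69.2 and 72.9 CPM in SD and 151.1, 148.9 and 155 CPM with TGF-β. It rose 6.21-fold in WT (log2 2.63 ± 0.0463, FDR = 4.55e-29) and 2.2-fold in KO (log2 1.14 ± 0.0397, FDR = 1.55e-21), to nearly the same level. The KO-SD libraries were 3.05-fold above WT-SD (log2 1.61 ± 0.0497, FDR = 2.63e-22). Under TGF-β the libraries of the 2 genotypes did not overlap but differed by only 0.11 on the log2 scale (FDR = 0.0142), a call that was lost without WT-TGF replicate 3 (0.08, FDR = 0.113) and turned to -0.01 (FDR = 0.794) with library sizes alone. The response in KO minus that in WT was -1.50 ± 0.0624 (FDR = 6.67e-18). Per length, Col8a1 exceeded Col8a2 by 9.38 ± 0.468 times in WT-SD, 12 ± 1.38 in KO-SD, 5.32 ± 0.219 in KO-TGF and 2.46 ± 0.104 in WT-TGF.

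The same RefSeq windows are shown for the type VIII chains, which differed in their response to TGF-β in KO.
Col8a1 chr16:57754688-57754987 (minus strand): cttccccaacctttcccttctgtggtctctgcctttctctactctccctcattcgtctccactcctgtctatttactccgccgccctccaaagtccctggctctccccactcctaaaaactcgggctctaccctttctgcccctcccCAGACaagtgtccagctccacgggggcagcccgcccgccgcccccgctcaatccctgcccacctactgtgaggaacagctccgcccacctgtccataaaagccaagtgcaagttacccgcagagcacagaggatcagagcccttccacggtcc
Col8a2 chr4:126286544-126286843 (plus strand): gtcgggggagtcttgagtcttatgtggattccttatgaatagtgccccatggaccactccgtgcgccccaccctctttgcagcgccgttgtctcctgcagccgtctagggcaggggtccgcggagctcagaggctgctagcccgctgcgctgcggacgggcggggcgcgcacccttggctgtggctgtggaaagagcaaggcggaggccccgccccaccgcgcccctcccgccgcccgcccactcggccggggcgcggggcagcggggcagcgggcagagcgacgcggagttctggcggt
Col8a1 held 1 Smad motif (capitals) and Col8a2 none, neither held the AP-1 letters, and guanine or cytosine made up 60.3% of the first window and 71.7% of the second. These windows were given for 7 of the 9 members, and not for Col12a1 or Col14a1.

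Type VII collagen comes from the single gene Col7a1 (chr9:108953586-108984875, plus strand), within which the microRNA gene Mir711 lies on the same strand, so that reads on both are in neither count. It had 5.42, 7.65 and 5.33 CPM in WT-SD and 18.5, 14.6 and 16.7 CPM in WT-TGF. The KO libraries had 5.42, 6.52 and 8.21 CPM in SD and 13.7, 16.6 and 13.6 CPM with TGF-β. Both TGF-β groups lay above both SD groups, and the genotypes overlapped in either condition. It rose 2.69-fold in WT (log2 1.43 ± 0.122, FDR = 9.12e-12) and 2.18-fold in KO (log2 1.12 ± 0.127, FDR = 2.98e-09). The log2 fold change of KO against WT was 0.13 (95% interval -0.17 to 0.43, FDR = 0.483) in SD and -0.18 (-0.40 to 0.04, FDR = 0.163) under TGF-β, and the former was -0.05 without KO-SD replicate 3. The difference between the responses was -0.30 (-0.68 to 0.07, FDR = 0.241), and it was called without WT-SD replicate 2 (-0.50, FDR = 0.0487) or KO-SD replicate 1 (-0.44, FDR = 0.0436).

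Among the FACITs, Col12a1 (chr9:79598991-79718831, minus strand), which codes for a fibril-associated collagen of dense connective tissue, was the member with the most counts in WT-SD, WT-TGF and KO-SD, with Col8a1 about level in KO-TGF. It was also the only one that TGF-β moved in opposite directions in WT and KO with both changes called by every alternative tried. It had 1010.4, 1030.4 and 1045 CPM in WT-SD and 1597, 1648 and 1586 CPM in WT-TGF. In KO it had 2774, 2754 and 2802 CPM in SD and 1424, 1396 and 1399 CPM with TGF-β. No groups overlapped, and the KO-SD libraries were the highest and the WT-SD libraries the lowest. TGF-β raised Col12a1 in WT by 0.65 ± 0.021 on the log2 scale (FDR = 2.9e-22), and in KO it fell by 0.98 ± 0.021 (FDR = 4.79e-27). The difference of the responses was -1.63 ± 0.0297 (FDR = 6.9e-27). KO was 2.7-fold above WT in SD (FDR = 1.69e-30), and under TGF-β its log2 fold change was -0.20 ± 0.0209 (FDR = 2.26e-09), or -0.32 with library sizes alone.

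Col14a1 (chr15:55307750-55520803, plus strand) codes for a FACIT that limits the growth of fibril diameter, and it was a low gene that TGF-β lowered in both genotypes. It had 5.24, 5.78 and 5.33 CPM in WT-SD and 0.992, 1.16 and 1.09 CPM in WT-TGF. In KO it had 6.75, 8.06 and 10.2 CPM in SD and 1.18, 0.961 and 0.63 CPM with TGF-β, the last from 22, 18 and 12 counts. Both TGF-β groups lay below both SD groups without overlap, and the KO-SD libraries lay above the WT-SD libraries. The log2 fold change with TGF-β was -2.33 ± 0.196 in WT (FDR = 5.67e-12) and -3.17 ± 0.194 in KO (FDR = 2.27e-15). KO was 1.53-fold above WT in SD (log2 0.61 ± 0.126, FDR = 0.000122), and under TGF-β the log2 fold change was -0.23 (95% interval -0.85 to 0.39, FDR = 0.545). Responses differed by -0.84 ± 0.329, which did not pass (FDR = 0.0591). The difference was called without KO-SD replicate 1 (-0.98, FDR = 0.0123) and without KO-TGF replicate 1 (-1.02, FDR = 0.0472). It was also called with no filter on low genes (FDR = 0.0208), with library sizes alone (FDR = 0.0409) and with the replicate number as a block (FDR = 0.0414). The summed level of 6 fibroblast markers was 18.6 to 22.3 CPM in WT-SD, 10.8 to 12.1 in WT-TGF, 14.9 to 16.3 in KO-SD and 4.65 to 5.61 in KO-TGF. These sums followed mainly Scara5 (means of 12.3 and 2.22 CPM in WT-SD and WT-TGF, 11.1 and 1.35 CPM in KO) and Pdgfra (3.55 and 0.646 CPM in WT), whereas Mfap5 (4.92 and 8.14 CPM in WT) and Dpt (0.0297 and 0.217 CPM in WT) had higher means with TGF-β in both genotypes. Lum had at most 3 counts in a library, and the part of these markers in the Col14a1 values was not tested.

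Col16a1 (chr4:130047840-130099283, plus strand), a FACIT of several connective tissues, rose with TGF-β by nearly the same amount in WT and KO. It had 95.1, 99.2 and 98.9 CPM in WT-SD and 164.5, 163.9 and 174.4 CPM in WT-TGF. In KO it had 97.3, 104.9 and 103.7 CPM in SD and 152.9, 165.3 and 159.7 CPM with TGF-β. The groups separated by TGF-β and overlapped between genotypes. Its fold change with TGF-β was 1.71 in WT (FDR = 1.06e-18) and 1.56 in KO (FDR = 1.37e-16). KO against WT was 0.06 on the log2 scale in SD (95% interval -0.01 to 0.13, FDR = 0.162) and -0.07 under TGF-β (-0.14 to -0.0039, FDR = 0.0683). The former turned to -0.01 with library sizes alone, and it was called without KO-SD replicate 1 (0.09, FDR = 0.0249) and with no filter (0.09, FDR = 0.0236). The latter was called without KO-SD replicate 1 (FDR = 0.0296), with the replicate number as a block (FDR = 0.0295) and with library sizes alone (-0.19, FDR = 1.01e-05). The responses differed by -0.13 ± 0.0494 (FDR = 0.0471), a call at the threshold that DESeq2 did not make (-0.11, FDR = 0.201) and that was lost without WT-TGF replicate 3 and without any 1 of the WT-SD or KO-TGF libraries or KO-SD replicates 2 and 3, with values from -0.17 to -0.07 over all 12 such fits.

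**Figure D3:**
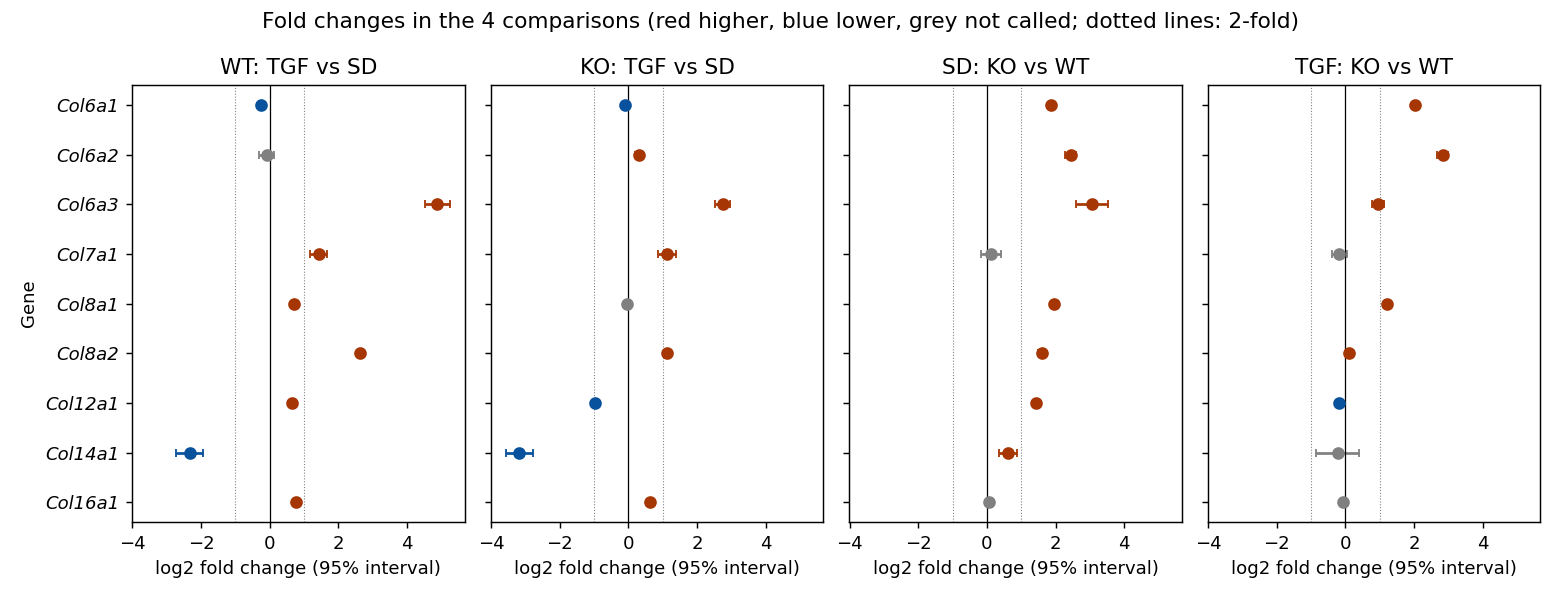
Log2 fold change (horizontal axis) of the 9 collagens in 4 panels, TGF-β against SD in WT and in KO and KO against WT in SD and under TGF-β, with a point and its 95% interval for each gene, red for higher, blue for lower and grey where FDR was not below 5%. Col6a3 had the largest rise (4.88 in WT), and in SD all type VI and VIII chains and Col12a1 lay beyond the dotted 2-fold line in KO.

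The first comparison asked how WT MMC respond to TGF-β. At FDR <5%, 6 of the 9 collagens were higher with TGF-β (35.9% of all genes tested) and 2 were lower (36.5% of all genes). With a fold change >2 as well, Col6a3, Col7a1 and Col8a2 were higher (3 of 9, against 4.18% of all genes) and Col14a1 was lower (1 of 9, against 5.66%). The median log2 fold change was 0.71 over the 9 collagens and -0.01 over all genes tested. Libraries of the 2 groups did not overlap for 8 of the 9, against 75.2% of all genes. Col6a3, Col7a1 and Col14a1 passed the RPKM limit only in groups where they were high, in 6, 6 and 2 of the 12 libraries, and Col6a2 in 8, so that these counts describe the genes and support nothing further.

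In KO MMC, TGF-β raised 5 of the 9 (35% of all genes) and lowered 3 (39%). The larger changes were again those of Col6a3, Col7a1 and Col8a2 upward (3 of 9, against 4.41%) and Col14a1 downward (1 of 9, against 9.03%). The median was 0.31 over the members and -0.02 over all genes, and the libraries did not overlap for 7 of the 9 (74.3% of all genes). Scaling by library size alone gave 4 higher and 4 lower, with 1 higher and 2 lower past a fold change of 2, the gene still above it being Col6a3. Tested as a difference between responses, 5 of the 9 had a smaller log2 value in KO than in WT (16.6% of all genes) and 2 had a larger one (8.76%), and with library sizes alone these were 6 and 1. The 3 with a difference of over 2-fold were Col6a3, Col12a1 and Col8a2 (3 of 9 lower, against 2.4% of all genes), and 0 of the 9 were higher past that limit (0.34%). Of the 2 larger ones, Col6a2 had a difference of 0.40 ± 0.12 (FDR = 0.0135), which was 0.29 (FDR = 0.0937) without WT-TGF replicate 2. Col6a1 had a difference of 0.15 ± 0.054 (FDR = 0.0376), which was not called with library sizes alone (0.10, FDR = 0.147) or without 1 of WT-SD replicates 1 and 3, WT-TGF replicates 1 and 2, or KO-SD replicates 1 and 2, at 0.13 to 0.15. The WT and KO responses share no library. Their difference is also KO against WT under TGF-β minus KO against WT in SD. It therefore rests on the same libraries as the comparisons between genotypes below and is not a separate result.

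**Figure D4:**
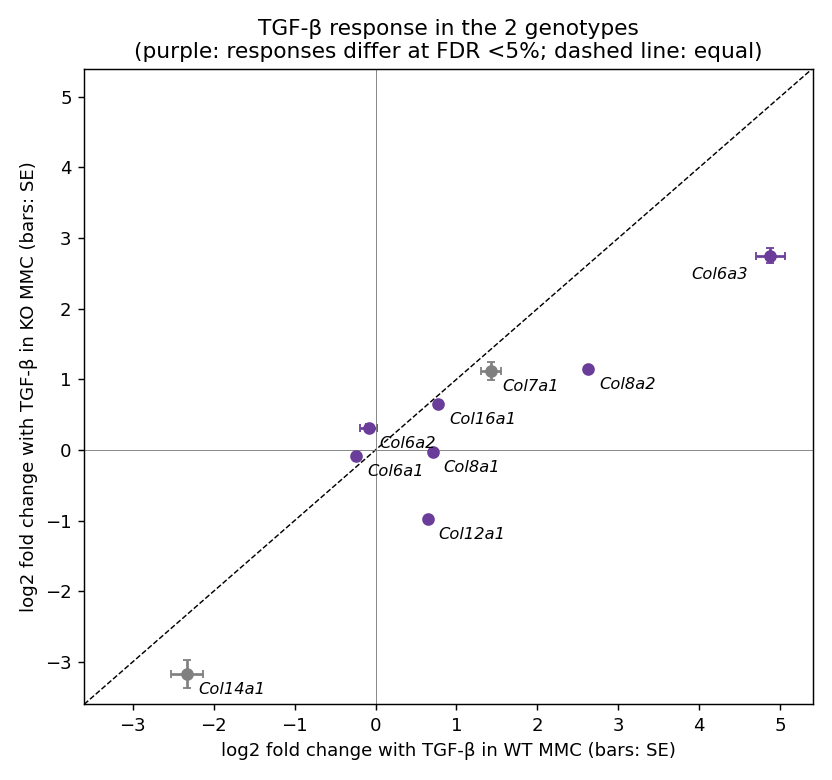
Log2 fold change with TGF-β in WT (horizontal axis) against that in KO (vertical axis) for the 9 collagens, with SE bars, a dashed line of equal responses and purple for responses that differed at FDR <5%. Col12a1 lay at 0.65 in WT and -0.98 in KO, Col8a1 at 0.71 and -0.03, and Col7a1 and Col16a1 lay close to the line.

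Between genotypes in serum depletion, 7 of the 9 collagens were higher in KO (30.6% of all genes tested) and 0 were lower (25.3% of all genes) in edgeR, also at an unadjusted p under 0.05 and in DESeq2. A fold change >2 was reached by the 3 type VI chains, both type VIII chains and Col12a1 (6 of 9, against 3.24% of all genes, and 0 lower, against 3.12%), with Col6a3 the largest at 8.37-fold. Libraries did not overlap for 7 of the 9 (59.2% of all genes). The median log2 fold change was 1.61 over the 9 and 0.02 over all genes. Col7a1 and Col16a1 were not called. Under TGF-β, 5 of the 9 were higher in KO (27.3% of all genes) and 1, Col12a1, was lower (27.8%). Col6a1, Col6a2 and Col8a1 passed a fold change of 2 (3 of 9, against 1.4% of all genes) and 0 were lower by as much (4.55%), and the libraries did not overlap for 6 of the 9 (61.6% of all genes). With library sizes alone, 4 were higher and 3 lower, because Col8a2 was no longer called and Col7a1 (-0.30, FDR = 0.0163) and Col16a1 were called lower. KO against WT in SD and under TGF-β use different libraries.

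A list of 30 receptors, partners and processing enzymes of these collagens was examined alongside, of which 20 were tested and 3 were never above 3 counts. With TGF-β, 11 of the 20 were higher and 8 lower in WT (35.9% and 36.5% of all genes tested), and 8 were higher and 12 lower in KO (35% and 39%). In SD, 15 were higher and 3 lower in KO than in WT (30.6% and 25.3% of all genes), and under TGF-β 12 were higher and 8 lower (27.3% and 27.8%). Cspg4, the NG2 proteoglycan that binds type VI collagen, had a mean of 39.8 CPM in WT-SD, 174.2 in WT-TGF, 95.6 in KO-SD and 485.4 in KO-TGF. Its groups stood in the same order as those of Col6a3, and it rose in both genotypes (log2 2.13 ± 0.0346 in WT, FDR = 5.59e-30, and 2.34 ± 0.0297 in KO, FDR = 1.33e-32). Ddr2, a receptor tyrosine kinase for collagen, had 24.7 CPM in WT-SD, 14.0 in WT-TGF, 263 in KO-SD and 165.8 in KO-TGF, a log2 difference between genotypes of 3.41 ± 0.0438 in SD (FDR = 8.56e-32) and 3.57 ± 0.0504 under TGF-β (FDR = 1.09e-30).

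Itga11 and Itga1, integrin chains that bind collagen, moved in opposite directions with TGF-β. Itga11 rose with TGF-β from 153.7 to 499.4 CPM in WT (log2 1.70 ± 0.0267, FDR = 2.72e-30) and from 83.6 to 184.7 CPM in KO (log2 1.14 ± 0.0299, FDR = 8.69e-25). Its log2 fold change of KO against WT was -0.88 ± 0.0299 in SD (FDR = 2.91e-21) and -1.44 ± 0.0266 under TGF-β (FDR = 7.08e-28). Itga1 fell with TGF-β in WT (348.9 to 125.8 CPM, log2 -1.47) and in KO (344.5 to 100.2 CPM, log2 -1.78). Dcn, decorin, which binds collagen fibrils and type VI collagen, was at 9.85 CPM in WT-SD but at 59.3 in KO-SD (log2 2.59 ± 0.0621, FDR = 3.72e-25) and fell in KO with TGF-β to 18.8 CPM (log2 -1.66 ± 0.0571, FDR = 1.09e-21). Tll1, a tolloid-like protease that trims procollagens, was at 18.9 CPM in WT-SD, 35.0 in WT-TGF, 129.5 in KO-SD and 49.3 in KO-TGF. Its response in KO minus that in WT was -2.28 ± 0.0713 (FDR = 8.38e-21). Fmod (fibromodulin) rose with TGF-β in WT (log2 0.48 ± 0.0386, FDR = 2.1e-12) and fell in KO (log2 -1.21 ± 0.0434, FDR = 3.3e-21), a difference of -1.69 ± 0.0582. Fbln5 (fibulin-5) fell in both genotypes, and further in KO (log2 -2.11 ± 0.0322) than in WT (log2 -1.06 ± 0.0311), a difference of -1.05 ± 0.0444. Tgfbi, an extracellular protein that binds type VI collagen, was low, at 0.481 CPM in WT-SD, 2.59 in WT-TGF, 4.86 in KO-SD and 3.84 in KO-TGF.

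**Figure D5:**
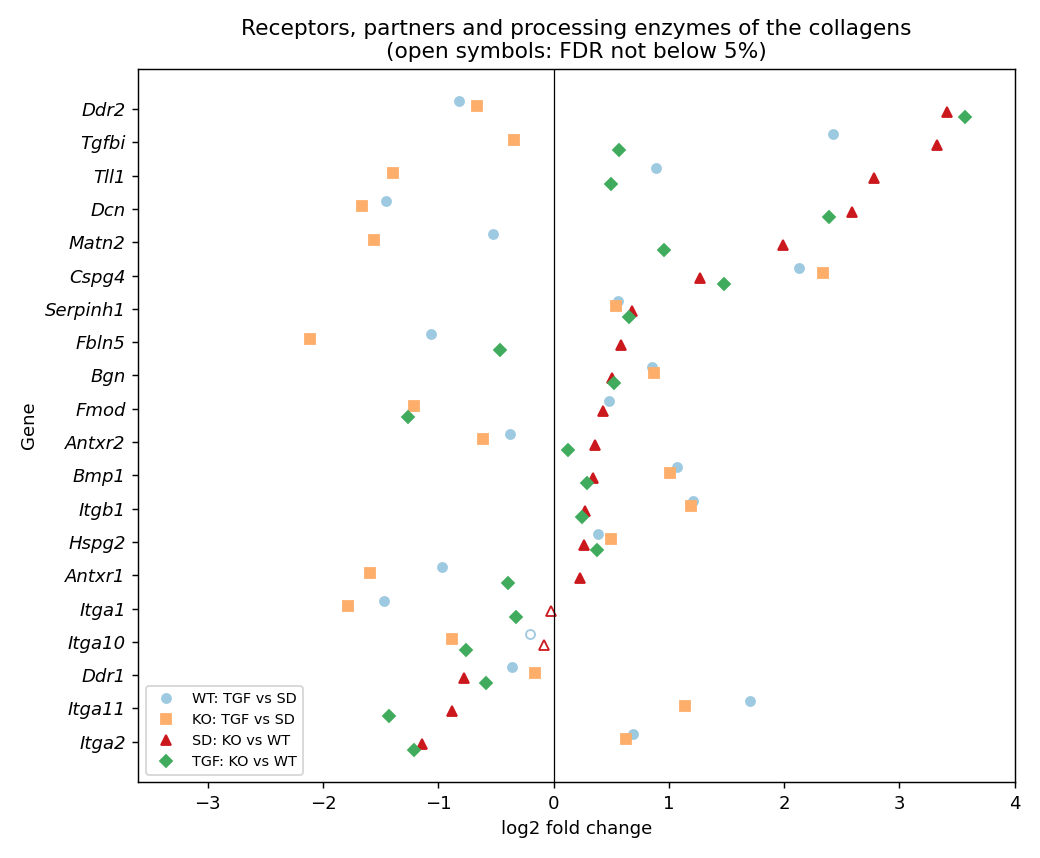
Log2 fold change (horizontal axis) of the 20 tested receptors, partners and processing enzymes, with a symbol for each of 4 comparisons, TGF-β against SD in WT and in KO and KO against WT in SD and under TGF-β, open where FDR was not below 5%. Ddr2 had the largest difference between genotypes (3.41 in SD), and Cspg4 rose most with TGF-β in KO (2.34).

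The genes whose pattern over the 12 libraries was most like that of a member were found by the root mean square difference of log2 CPM, each gene centred on its own mean. Col16a1 had the closest match, Mtch1 at 0.0497 and Galnt10 at 0.0556, and Col6a3 the most distant, Rgcc at 0.495 and Gjb2 at 0.546. The nearest to Col8a1 were Postn, which codes for the matrix protein periostin, at 0.175 and Tmeff2 at 0.178. Pcdhgb2 at 0.152 was nearest to Col6a1, and Hoxc11 at 0.189 and the fibrillar collagen Col3a1 at 0.308 to Col6a2. Klf2 at 0.203 and Alcam at 0.206 were nearest to Col12a1, Tubb6 at 0.27 to Col8a2, Bok at 0.168 to Col7a1, and Fam161b and P2rx6, each at 0.228, to Col14a1. Among the members themselves, Col7a1 and Col16a1 were closest at 0.338, then Col6a1 and Col6a2 at 0.375, while Col14a1 was at 1.30 from its nearest member, Col12a1. These distances are a description, with libraries that share depth and scaling.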

How the data were processed

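RNA-seq counts were analysed for 12 libraries, 3 in each of 4 groups named in the labels. The authors prepared stranded mRNA libraries, read them single-end, used TopHat for alignment to mm10 and HTSeq-count for counting on RefSeq genes, and the deposited counts are raw whole numbers per gene. Reads with several alignments (11.16% to 11.74%), outside exons (10.26% to 15.38%) or on overlapping genes (0.2253% to 0.2741%) were given to no gene and left out. Depth was 19898050 to 22827706 counts on genes, and counting intervals leave out other error.

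Counts were normalized by TMM and tested two-sided with edgeR 4.0.16 (R 4.3.3, quasi-likelihood test, Benjamini-Hochberg adjustment) in 1 fit of all groups, over 11478 genes with RPKM >1 in at least 1 library. RPKM used the union of exons in GENCODE vM21. A call was FDR <5%, also counted with fold change >2. The fit was tested on simulated data. An exact permutation test of 3 against 3 libraries cannot go below p = 0.1, so the fit across all genes was used. Related genes named have FDR <5% and fold change >2, with at most 4 per comparison, and the nearest 1 or 2 genes are named for each member. Alternatives were library sizes alone, DESeq2 1.42.0 (without independent filtering), CPM >1 in at least 3 libraries, no filter, the replicate number as a block, and each library left out. Results for 1 marker gene are not reported here. The members and lists were chosen with earlier results of these data known.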

Additional observations from a re-analysis of the deposited data

Results flagged for a closer look

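For 7 of the 9 collagens the response to TGF-β differed between WT and KO MMC in edgeR's quasi-likelihood test of the difference itself, with 5 lower in KO (16.6% of all genes tested) and 2 higher (8.76%). The log2 response in KO minus that in WT was -2.13 for Col6a3, -1.63 for Col12a1, -1.50 for Col8a2 and -0.73 for Col8a1. It was 0.40 for Col6a2, 0.15 for Col6a1 and -0.13 for Col16a1. KO-SD started above WT-SD for all of these except Col16a1, which was not called between genotypes in SD. Col12a1 was the only one called with TGF-β in opposite directions in the 2 genotypes. The values for Col6a1 and Col16a1 lost their call in several alternatives.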

How the results depend on the processing

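Of 765 alternative log2 fold changes of the 9 collagens, 719 kept direction and side of the threshold, 24 lost their call, 15 gained one and 7 changed sign. With library sizes alone, Col16a1 turned to -0.0129 between genotypes in SD and Col8a2 to -0.0121 under TGF-β. The other 5 sign changes came from leaving out 1 library: Col7a1 between genotypes in SD ranged from -0.0471 (without KO-SD replicate 3) to 0.321, Col14a1 between genotypes under TGF-β from -0.424 to 0.00093 (without KO-TGF replicate 3), Col8a1 with TGF-β in KO from -0.0552 to 0.0222 (without KO-SD replicate 1, and 0.0102 when KO-TGF replicate 3 was out) and Col6a2 with TGF-β in WT from -0.16 to 0.0266 (without WT-TGF replicate 2). With library sizes alone, members with a higher response in KO went from 2 to 1, members lower in KO under TGF-β from 1 to 3, and in KO members past a fold change of 2 with TGF-β from 3 to 1 higher and from 1 to 2 lower. The summed RPKM was then 164.7 in WT-SD, 250.9 in WT-TGF, 472.7 in KO-SD and 352.6 in KO-TGF, an order that stayed as before. Leaving out 1 library gave 0 to 2 members with a higher response in KO (0 without WT-TGF replicate 2) and 1 to 2 members lower in KO-TGF (2 without KO-SD replicate 1). The labels give replicates a number and do not say what it stands for. Same-numbered libraries correlated at -0.0284 to 0.0867 in their deviations, against -0.095 to 0.0392 for differently numbered ones. Of the 12 libraries, 10 correlated best with their own number, and the main fit used no block. With the replicate number as a block, the members lower in KO under TGF-β went from 1 to 2, as Col16a1 was called (FDR = 0.0295), and Col14a1 gained a called difference of responses (-0.84, FDR = 0.0414). The cause of these changes was not tested. At 3 libraries a group, Col14a1 with 12 to 26 counts in the TGF-β libraries and Col6a3 with 18 to 26 in WT-SD are the least precise values.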

Other observations

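Of 13 other non-fibrillar collagens outside the basement membrane (Col6a4, Col6a5, Col6a6, the type IX chains, Col10a1, Col19a1, Col20a1, Col21a1, Col22a1, Col26a1 and Col28a1), 12 were among the genes counted and 0 reached RPKM >1 in any library, so none was tested. Of the chains related to the α3 chain of type VI collagen, Col6a5 and Col6a6 had at most 2 counts and 1 count in a library, whereas Col6a4 had 15 to 39 counts, at means of 1.51 CPM in WT-SD, 1.08 in WT-TGF, 1.14 in KO-SD and 1.04 in KO-TGF. Col9a1 had 0 counts, and Col20a1, the most counted of them, 39 to 90.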
